A study of Mus musculus with 7 samples.

Results

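The genes described here are those of the glutamatergic synapse that carry its receptors and its main adhesion and scaffold proteins. They are the subunits of the AMPA, kainate, delta and NMDA receptors, the metabotropic glutamate receptors, the neurexins, the neuroligins, the LRRTM proteins, and the scaffolds of the DLG and DLGAP families. They were chosen by gene symbol alone, and 44 of the 23282 entries of the count table belong to them. RNA was measured in sorted tumour cells (tdTomato-positive, adult C57BL/6 mice with glioblastoma) by QuantSeq, which reads 1 tag near the 3' end of each captured polyadenylated transcript. There were 4 libraries of genotype FYN-KO and 3 of genotype WT, and the design text says that cells were sorted and libraries made independently. The labels name no exon for the Fyn knock-out, no method of starting the tumours and no cell type or promoter that would confine the knock-out.

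Ionotropic glutamate receptors are cation channels opened by glutamate, and metabotropic ones signal through G proteins. Neurexins on the presynaptic side bind neuroligins and LRRTM proteins on the postsynaptic side, where DLG scaffolds such as Dlg4 (the postsynaptic density protein PSD-95) hold the receptors and DLGAP proteins link them to deeper scaffolds. Oligodendrocyte progenitors receive synaptic input from neurons and carry many of these genes, and glioma cells can form glutamatergic synapses with neurons. Fyn, a tyrosine kinase of the Src family, is known to bind PSD-95 and to phosphorylate the NMDA receptor subunit encoded by Grin2b.

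Facts of the libraries bear on every value that follows. Depth was 8976745 to 10396507 counts in FYN-KO and 11911864 to 16371244 in WT, while FYN-KO libraries held 13535 to 14548 genes with a count and WT libraries 7723 to 9924. Fyn stood at 74.5 to 189.8 counts per 1000000 (CPM) in FYN-KO and at 719.9 to 1604 CPM in WT. The share of counts on the ribosomal RNA gene Rn45s was 10.55% to 16.6% in FYN-KO and 1.41% to 2.92% in WT. Markers in the FYN-KO libraries went against their label of tumour cells. The 9 oligodendrocyte progenitor markers (Pdgfra, Cspg4, Olig1, Olig2, Sox10, Ptprz1, Gpr17, Lhfpl3 and C1ql1) summed to 142.8 to 993 CPM there, against 8498 to 13000 CPM in WT, and 6 steroid-producing cell markers (Cyp11a1, Star, Hsd3b1, Cyp17a1, Nr5a1 and Fdx1) summed to 22890 to 26990 CPM, against 0.977 to 285.8 CPM in WT. Each of the 9 progenitor markers had a count in both groups, and Cyp17a1 and Nr5a1 had none in WT. In such bulk libraries fewer cells of a type and less RNA per cell cannot be told apart, and the part of the cell make-up in the differences below was not tested.

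In FYN-KO the neurexin gene Nrxn2, the neuroligin gene Nlgn2, the scaffold gene Dlgap1 and the delta receptor gene Grid1 fell. Called higher were 3 NMDA receptor subunit genes with no or almost no count in WT. Of the 44 members, 38 had a count in some library and 28 passed the filter on low counts. Among these 28, 5 were lower, Nrxn2, Nlgn2, Dlgap1 and Grid1 among them, and 3 were higher, Grin1, Grin2b and Grin2c (edgeR quasi-likelihood test, Benjamini-Hochberg adjusted p under 0.05 over 13122 genes). The 3 higher genes passed that filter through the FYN-KO libraries alone, and the tags of Grin1 are uncertain, as described below. Of the tested members 10.7% were higher and 17.9% lower, where 19.0% of all tested genes were higher and 3.51% lower. The groups did not overlap in CPM for 12 tested members that were lower in FYN-KO and 3 that were higher, where 7.32% of all tested genes lay wholly below WT and 30.1% wholly above. The median log2 fold change, FYN-KO minus WT, was -2.48 over the 28 tested members, also with the 4 that had no WT count at their lower bound, and 0.45 over all tested genes. There were 9 lower calls among 30 tested members without WT replicate 1 and 8 among 29 without WT replicate 2. Of all tested genes, 5.17% and 6.0% were lower in those settings. limma-voom gave 0 higher calls, with 0 at an unadjusted p under 0.05, and 7 lower calls, while DESeq2 gave 5 higher and 12 lower, each among 28 members. Of all tested genes, limma-voom called 0.183% higher and 2.44% lower, and DESeq2 27.2% higher and 7.0% lower.

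**Figure D1:**
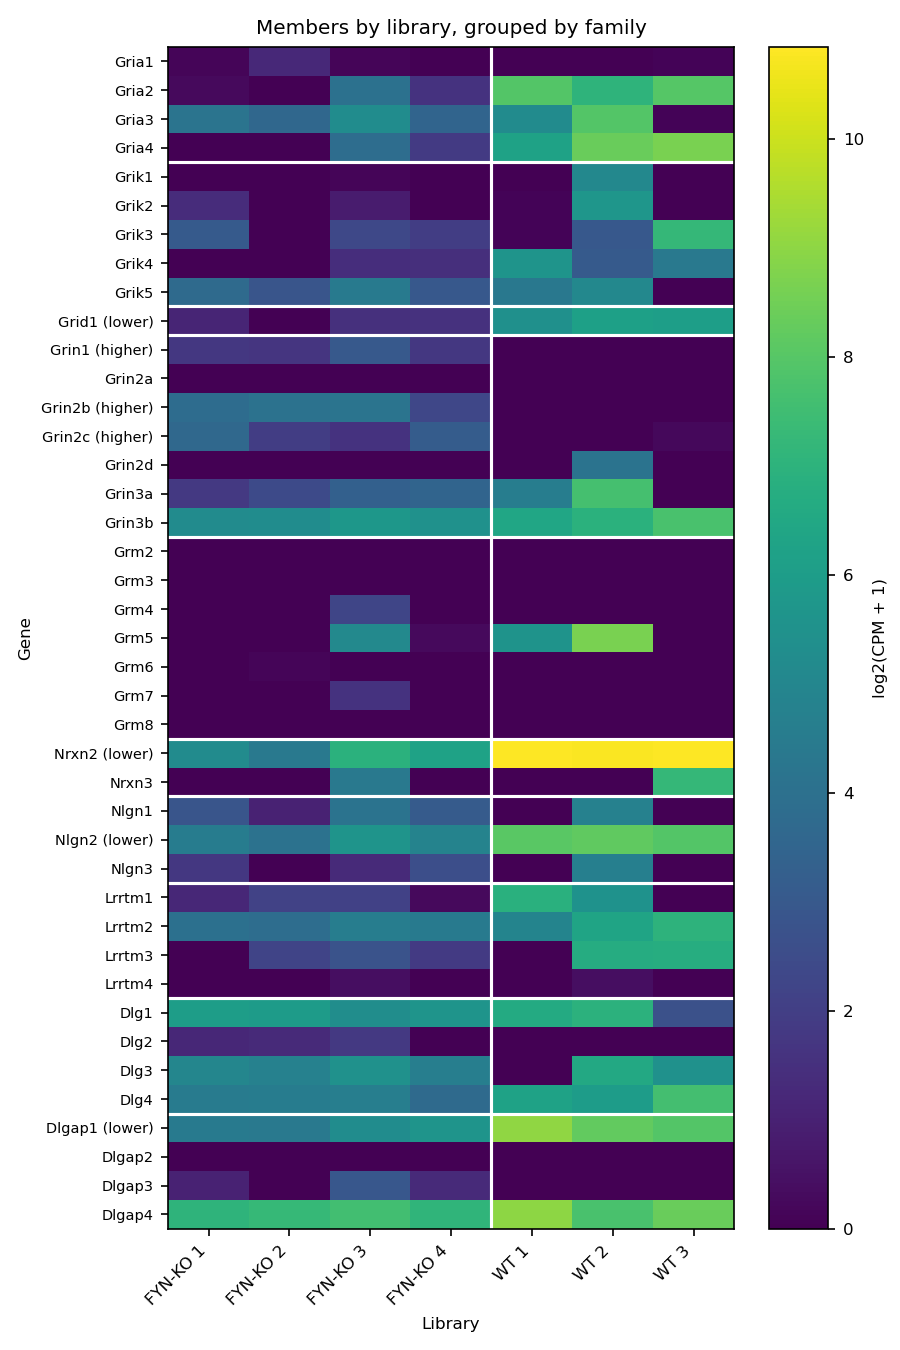
Level of 41 members in each of the 4 FYN-KO and 3 WT libraries as log2(CPM + 1), with white lines between families and the words higher or lower beside members past the threshold. Nrxn2, Nlgn2 and Dlgap1 are bright in all 3 WT columns, Grin1 and Grin2b hold no count in WT, and many rows of WT mix high values with 0.

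Promoter sequence in RefSeq (GRCm38.p6) was found for 28 of the 44 members, and 4 of the 8 called genes have a window there at the gene start used here, 250 bases before to 50 after it. They are shown because Grin1 and Grin2c rose and Nlgn2 and Dlgap1 fell. Capitals mark matches, on either strand, to CAGCTG and CATATG (E-boxes, which transcription factors of the Olig2 class can bind), to TTCAGCACC and GGACAGCG (parts of the RE1 element of neuronal genes) and to AAGGTCA (the core bound by Nr5a1).
Grin1, chr2:25319138-25319437, minus strand: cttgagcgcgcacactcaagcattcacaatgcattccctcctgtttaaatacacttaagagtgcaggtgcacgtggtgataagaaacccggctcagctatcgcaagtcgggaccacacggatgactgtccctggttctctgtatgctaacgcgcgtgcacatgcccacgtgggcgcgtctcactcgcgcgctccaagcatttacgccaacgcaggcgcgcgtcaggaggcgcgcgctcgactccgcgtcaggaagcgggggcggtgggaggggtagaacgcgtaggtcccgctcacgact
Grin2c, chr11:115267194-115267493, minus strand: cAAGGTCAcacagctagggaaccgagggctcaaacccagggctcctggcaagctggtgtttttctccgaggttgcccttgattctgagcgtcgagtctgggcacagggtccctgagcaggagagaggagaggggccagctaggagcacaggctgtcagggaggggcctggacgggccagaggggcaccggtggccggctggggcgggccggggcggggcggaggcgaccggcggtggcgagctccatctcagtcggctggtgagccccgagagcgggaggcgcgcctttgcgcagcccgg
Nlgn2, chr11:69837735-69838034, minus strand: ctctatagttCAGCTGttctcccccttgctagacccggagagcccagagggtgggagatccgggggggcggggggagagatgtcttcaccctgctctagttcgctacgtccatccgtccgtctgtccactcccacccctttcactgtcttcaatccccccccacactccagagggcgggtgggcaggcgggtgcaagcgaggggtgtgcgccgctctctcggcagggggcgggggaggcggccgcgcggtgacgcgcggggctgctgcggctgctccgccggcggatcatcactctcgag
Dlgap1, chr17:69968823-69969122, plus strand: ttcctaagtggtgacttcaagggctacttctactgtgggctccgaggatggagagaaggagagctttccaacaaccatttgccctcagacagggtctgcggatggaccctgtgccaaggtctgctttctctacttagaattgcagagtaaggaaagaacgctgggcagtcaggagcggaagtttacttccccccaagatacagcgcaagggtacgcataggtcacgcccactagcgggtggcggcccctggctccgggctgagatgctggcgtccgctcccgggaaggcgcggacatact

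The 4 windows were rich in G and C, with 60.7% in Grin1, 70.0% in Grin2c, 68.7% in Nlgn2 and 57.7% in Dlgap1, and held 33, 22, 26 and 15 CG pairs in that order. Nlgn2 held 1 CAGCTG, starting at base 11, and Grin2c held 1 AAGGTCA, starting at base 2. CAGCTG occurs in 16.3% of all 32851 windows of this length, CATATG in 3.91%, TTCAGCACC in 0.371%, GGACAGCG in 1.26% and AAGGTCA in 4.72%. Of the 44 windows of the members, 8 held CAGCTG. These matches describe letters in a window and say nothing of binding.

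AMPA receptor subunits carry fast excitatory transmission, and none of the 3 tested genes passed the threshold. Gria2, whose product limits calcium entry through the channel, stood at 0.213, 0, 15.3 and 2.005 CPM in the FYN-KO libraries and at 245, 132 and 249.9 CPM in the WT libraries. Gria4 stood at 0, 0, 13.8 and 2.56 CPM in FYN-KO and at 74.5, 332 and 403 CPM in WT. For both genes every FYN-KO library lay below every WT library, and FYN-KO replicate 3 was the highest of its group. The log2 fold changes, at -5.63 ± 1.88 (SE) for Gria2 (edgeR adjusted p = 0.0622) and -6.10 ± 2.08 for Gria4 (0.0677), missed the threshold. Without FYN-KO replicate 3 both passed, at -8.16 (0.0240) and -8.33 (0.0445), as they did with limma-voom at -8.68 (0.0107) and -9.99 (0.0142). With any other single library left out neither passed, at -5.97 to -5.21 (0.0651 to 0.168) for Gria2 and -6.56 to -5.33 (0.0625 to 0.182) for Gria4.

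Gria3 differed in pattern from these. It stood at 17.2, 11.3, 37.5 and 10.4 CPM in FYN-KO and at 36.7, 243.6 and 0.0840 CPM in WT, so that the groups overlapped and WT alone spanned the whole range. Its log2 fold change was -2.02 ± 1.64 (edgeR adjusted p = 0.492), and 0.06 without WT replicate 2 (0.980). Gria1 had at most 14 counts in any library and was not tested. Within each FYN-KO library Gria3 made up 56.2% to 98.2% of the AMPA subunit tags, against 0.0128% to 34.5% in each WT library. The FYN-KO shares rest on 164, 132, 610 and 134 tags and the WT shares on 4553, 11572 and 7782. The lowest WT share is 1 Gria3 count in WT replicate 3. Summed over the 4 genes, AMPA subunit tags reached 28.0 ± 25.9 CPM in FYN-KO (mean ± SD, n = 4) and 572 ± 189 CPM in WT (n = 3), a mean 20.5 times lower in FYN-KO.

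Of the kainate receptor genes 3 were tested and none passed. Grik4, a kainate subunit that binds glutamate with high affinity, stood at 0, 0, 1.64 and 1.78 CPM in FYN-KO and at 47.4, 7.45 and 19.98 CPM in WT, with no overlap and a log2 fold change of -4.94 ± 1.99 (edgeR adjusted p = 0.121). Grik3 stood at 7.35, 0, 4.05 and 2.90 CPM in FYN-KO and at 0.0783, 6.90 and 150.2 CPM in WT. That gene rested on WT replicate 3, since its log2 fold change was -4.26 ± 2.33 (edgeR adjusted p = 0.267) with it and 0.31 (0.936) without it. Grik5 averaged 11.5 ± 6.67 CPM in the FYN-KO libraries (SD, n = 4) and 17.1 ± 16.3 CPM in the WT ones (n = 3), with wide overlap (edgeR adjusted p = 0.923). Grik1 and Grik2 were not tested, and each exceeded 10 CPM in WT replicate 2 alone, at 32.3 and 50.8 CPM.

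Grid1 encodes a delta receptor, which links across the cleft to cerebellins and neurexins, and it fell. It stood at 1.17, 0, 1.86 and 1.89 CPM in FYN-KO and at 42.7, 69.7 and 66.2 CPM in WT. Every FYN-KO library lay below every WT library, the mean was 48.3 times lower in FYN-KO, and the log2 fold change was -5.66 ± 1.60 (edgeR adjusted p = 0.0368). The call was lost without FYN-KO replicate 1 (-5.61, 0.128), replicate 3 (-5.85, 0.104) or replicate 4 (-5.91, 0.106). The gene lies on the plus strand of chromosome 14, 34820108 to 35583379 (GRCm38).

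Of 5 tested NMDA receptor subunit genes 3 rose and 2 did not pass. Grin2b rose, with 13.3, 16.2, 17.1 and 3.90 CPM in FYN-KO and no count in any WT library. Against a floor of 3 counts per WT library, 0.252 CPM, it was at least 50.1-fold higher in FYN-KO (edgeR adjusted p = 0.0121). That floor is the highest among the WT libraries and covers counting error only, not uneven detection within WT. Grin1, which encodes the obligatory subunit of the receptor, stood at 2.34, 2.21, 7.11 and 2.34 CPM in FYN-KO and had no count in WT, at least 13.9-fold higher (edgeR adjusted p = 0.0124). Grin2c stood at 11.8, 2.89, 1.97 and 7.80 CPM in FYN-KO and at 0, 0 and 0.168 CPM in WT, a ratio of pooled counts of 124 with a 95% exact interval of 33.9 to 1031 that covers counting error only (edgeR adjusted p = 0.0393).

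Every FYN-KO library lay above every WT library for these 3 genes, but the levels were low and the counts per FYN-KO library were 21 to 65 for Grin1, 35 to 168 for Grin2b and 18 to 111 for Grin2c. They passed the filter through the FYN-KO libraries alone, in which more genes were detected. Grin2c lost its call without WT replicate 1 (edgeR adjusted p = 0.0833) and with no filter (0.0713), and limma-voom called none of Grin1 (0.505), Grin2b (0.460) and Grin2c (0.570). Their fitted log2 fold changes of 8.35, 10.17 and 6.30 are not measured sizes, since the counts in WT are 0 or near it. All 3 lie on minus strands (GRCm38), Grin1 on chromosome 2, 25291181 to 25319187, Grin2b on chromosome 6, 135713233 to 136173511, and Grin2c on chromosome 11, 115249169 to 115267243.

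The subunits that do not bind glutamate, Grin3a and Grin3b, made up most of the NMDA subunit tags in WT. They did so in FYN-KO as well, where Grin3b alone made up 54.7% to 64.1%. Grin3a stood at 2.45, 4.42, 9.09 and 10.4 CPM in FYN-KO and at 23.3, 201.5 and 0 CPM in WT, and it did not pass (log2 fold change -3.26 ± 1.93, edgeR adjusted p = 0.311). Without WT replicate 3 it passed at -3.84 (0.0339), while without WT replicate 2 the log2 fold change was -0.84 (0.725). Grin3b stood at 36.1, 38.0, 52.8 and 43.6 CPM in FYN-KO and at 83.3, 121 and 213.7 CPM in WT, with no overlap and a log2 fold change of -1.87 ± 0.69 (edgeR adjusted p = 0.0889). Leaving out WT replicate 1 or WT replicate 2 took it past the threshold, at -2.17 (0.0344) and -2.12 (0.0437), while without WT replicate 3 it was -1.11 (0.149). Grin2a had no count in any library, and Grin2d had 16.7 CPM in WT replicate 2 and none elsewhere.

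**Figure D2:**
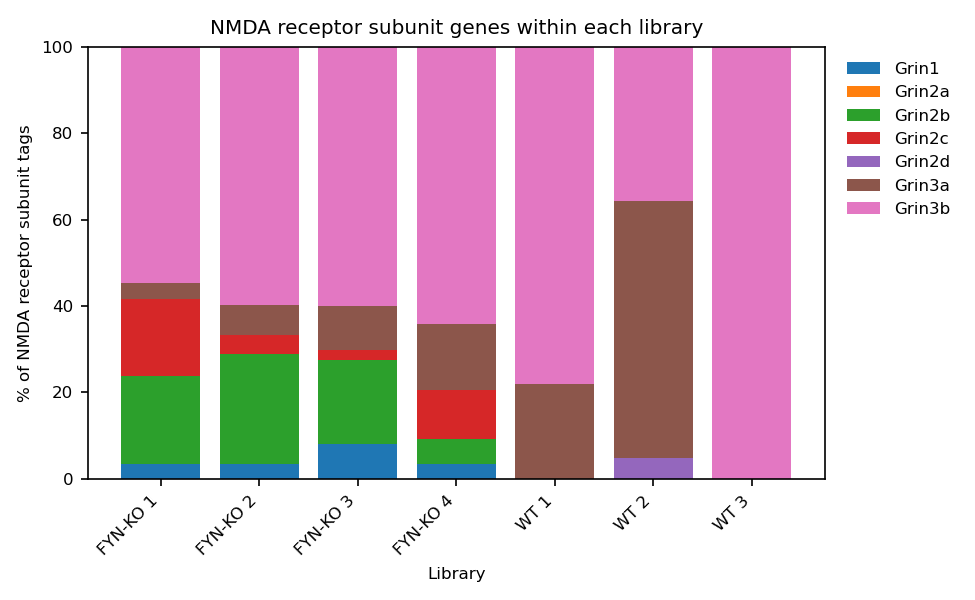
Share of each NMDA receptor subunit gene among all NMDA subunit tags of a library, in percent, for 4 FYN-KO and 3 WT libraries. Grin1, Grin2b and Grin2c take part of each FYN-KO bar, while Grin3a and Grin3b fill WT 1 and WT 3 and nearly fill WT 2, where Grin2d takes 4.92%.

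In shares of NMDA subunit tags, Grin2b took 5.74% to 25.4% in FYN-KO and 0% in WT, and Grin1 took 3.44% to 8.09% in FYN-KO and 0% in WT. Grin3a and Grin3b together left little room for others in WT, where Grin3b alone took 35.6% to 99.9%, against 54.7% to 64.1% in FYN-KO. The tags summed per library numbered 610 to 804 in FYN-KO and 1362 to 5551 in WT. All these shares rest in part on Grin1 and Grin3b, whose tags are uncertain as described next. By counting error alone, a gene at 0 in WT can still hold up to 0.252 CPM at this depth. That limit does not cover uneven detection within WT. Over all genes, 41.5% of those at 100 CPM or more in some WT library lay under 1 CPM in another.

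Grin1 and Grin3b each overlap a gene on the opposite strand at their 3' ends, where QuantSeq tags lie, and the counting strand was not given in the sources used here. Grin1 held 22, 23, 65 and 21 counts in FYN-KO libraries 1 to 4, and its antisense partner Grin1os held 24, 24, 62 and 22 there. In WT Grin1 held 0 in each library and Grin1os 0, 2 and 0. Grin3b held 339, 395, 482 and 391 counts in FYN-KO, with 426, 534, 498 and 469 for its partner Tmem259, and 1064, 1979 and 2545 in WT, with 1068, 2371 and 3213 for Tmem259. In the FYN-KO libraries Grin1os differed from Grin1 by -4.62% to 9.09% of its count, and over all 7 libraries Tmem259 exceeded Grin3b by 0.376% to 35.2%. Without a stated strand, tags of the genes of a pair cannot be told apart, and the values of Grin1 and Grin3b are uncertain to that extent. Grin2b and Grin2c have no such partner within 1 kb of their 3' ends in GENCODE M21.

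**Figure D3:**
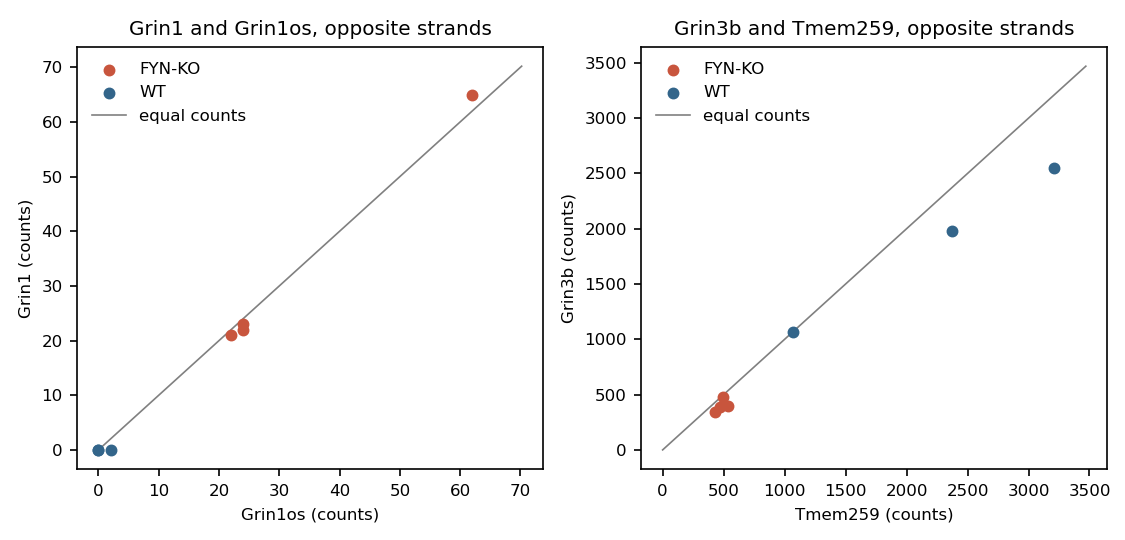
Counts of Grin1 against Grin1os and of Grin3b against Tmem259, genes on opposite strands with overlapping 3' ends, with 1 point per library (4 FYN-KO, 3 WT) and a grey line of equal counts. Points lie near the line for Grin1 and on or below it for Grin3b.

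Of 8 metabotropic receptor genes 1 was tested, and it did not pass. Grm2, Grm3 and Grm8 had no count in any library, and Grm4, Grm6 and Grm7 had counts in 1 FYN-KO library each and none in WT. Grm5, a receptor of astrocytes, progenitors and neurons that couples to phospholipase C, stood at 0, 0, 33.6 and 0.223 CPM in FYN-KO and at 47.0, 405 and 0 CPM in WT. The groups overlapped, because WT replicate 3 had no count and FYN-KO replicate 3 stood alone in its group (log2 fold change -3.81 ± 2.90, edgeR adjusted p = 0.455, and -1.39 with 0.746 without WT replicate 2).

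The neurexin gene Nrxn2 fell, and it was present in every library. Nrxn2 stood at 36.9, 20.01, 121 and 74.0 CPM in FYN-KO and at 1792, 1759 and 1837 CPM in WT, a mean 28.6 times lower in FYN-KO, with a log2 fold change of -4.89 ± 0.66 (edgeR adjusted p = 0.0121). Its mean was 62.9 ± 44.6 CPM in FYN-KO (SD, n = 4) and 1796 ± 39.6 CPM in WT (n = 3), and the highest FYN-KO library lay far under the lowest WT library. The call held without any 1 library, with an edgeR adjusted p of 0.00455 to 0.0238.

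Nrxn2 lies on the plus strand of chromosome 19, 6418731 to 6544169 (GRCm38). Nrxn3 was not tested, with 19.6 CPM in FYN-KO replicate 3 and 147.6 CPM in WT replicate 3 as its only counts.

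Among the neurexin partners, Nlgn2, the neuroligin of inhibitory synapses, fell. It stood at 22.7, 15.9, 47.7 and 28.2 CPM in FYN-KO and at 268, 294 and 247.7 CPM in WT, 9.43 times lower in FYN-KO, with a log2 fold change of -3.28 ± 0.60 (edgeR adjusted p = 0.0121, and 0.00641 to 0.0269 without any 1 library). The gene lies on the minus strand of chromosome 11, 69823122 to 69837784 (GRCm38). Nlgn1, the neuroligin of excitatory synapses, stood at 6.18, 1.06, 16.3 and 7.69 CPM in FYN-KO and had counts in WT replicate 2 alone, at 26.4 CPM. It did not pass (log2 fold change 0.14 ± 2.16, edgeR adjusted p = 0.979), although without WT replicate 2, its 1 WT library with a count, it was called higher. Nlgn3, known to promote glioma growth when shed by other cells, stood at 2.34, 0, 1.42 and 5.01 CPM in FYN-KO and in WT had 24.4 CPM in replicate 2 and no other count (edgeR adjusted p = 0.721).

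LRRTM proteins, postsynaptic partners of neurexins with leucine-rich repeats, lay lower in FYN-KO without passing the threshold. Lrrtm2 stood at 14.9, 13.9, 22.9 and 21.1 CPM in FYN-KO and at 28.5, 79.3 and 129.4 CPM in WT, with no overlap (log2 fold change -2.29 ± 0.93, edgeR adjusted p = 0.121, and -2.71 with 0.0298 without WT replicate 1). Without WT replicate 3 its log2 fold change was -1.37 (0.199). Lrrtm1 stood at 1.28, 3.37, 3.28 and 0.223 CPM in FYN-KO and at 117, 44.8 and 0 CPM in WT. Its edgeR adjusted p was 0.168 with all libraries and 0.0209 without WT replicate 3 (log2 fold change -4.64 and -5.23), and without WT replicate 1 the log2 fold change was -3.15 (0.275). Lrrtm3 stood at 0, 3.65, 5.91 and 2.56 CPM in FYN-KO and at 0, 105 and 108 CPM in WT, at -4.64 ± 2.33 (0.222) with all libraries, -5.22 (0.0491) without WT replicate 1 and -3.81 (0.295) without WT replicate 3. For Lrrtm1 and Lrrtm3 a single WT library at 0 made the groups overlap, and Lrrtm4 had at most 5 counts.

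None of the 4 tested DLG scaffold genes passed the threshold. Dlg4 stood at 21.7, 22.2, 24.0 and 12.6 CPM in FYN-KO and at 75.1, 62.6 and 191.5 CPM in WT, with no overlap and a mean 5.45 times lower in FYN-KO (log2 fold change -2.66 ± 0.85, edgeR adjusted p = 0.0559). Without WT replicate 1 or WT replicate 2 it passed, at -2.93 (0.0327) and -3.04 (0.0164), while without WT replicate 3 it was -1.66 (0.107). Dlg1, which is widely expressed in epithelia as well as neurons, stood at 64.6, 60.2, 39.4 and 48.6 CPM in FYN-KO and at 99.4, 126 and 5.46 CPM in WT (edgeR adjusted p = 0.842). Dlg3 stood at 30.05, 26.0, 43.5 and 24.2 CPM in FYN-KO and at 0, 91.3 and 43.9 CPM in WT (log2 fold change -0.52, edgeR adjusted p = 0.893), and its sign turned when WT replicate 2 was left out (0.08). Dlg2 had 0 to 23 counts per FYN-KO library and none in WT (edgeR adjusted p = 0.0567, and past the threshold without FYN-KO replicate 4). The family sum was 105.5 ± 14.0 CPM in FYN-KO, against 232 ± 53.2 CPM in WT, a mean 2.20 times lower in FYN-KO, with no overlap.

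DLGAP proteins, which tie DLG scaffolds to SHANK proteins, gave 1 call. Dlgap1 stood at 20.4, 19.7, 37.3 and 47.2 CPM in FYN-KO and at 524, 304 and 246 CPM in WT, 11.5 times lower in FYN-KO, with a log2 fold change of -3.57 ± 0.57 (edgeR adjusted p = 0.0121, and 0.00455 to 0.0245 without any 1 library). It lies on the plus strand of chromosome 17, 69969073 to 70821413 (GRCm38). Dlgap4 stood at 133, 152, 188 and 137 CPM in FYN-KO and at 516, 210.3 and 331 CPM in WT, with no overlap and a log2 fold change of -1.31 ± 0.47 (edgeR adjusted p = 0.0821, and 0.0108 without WT replicate 2, where the log2 fold change was -1.66, but -1.01 with 0.157 without WT replicate 1). Dlgap3 had 0 to 61 counts per FYN-KO library and none in WT (edgeR adjusted p = 0.0687, and past the threshold without FYN-KO replicate 2), and Dlgap2 had no count.

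**Figure D4:**
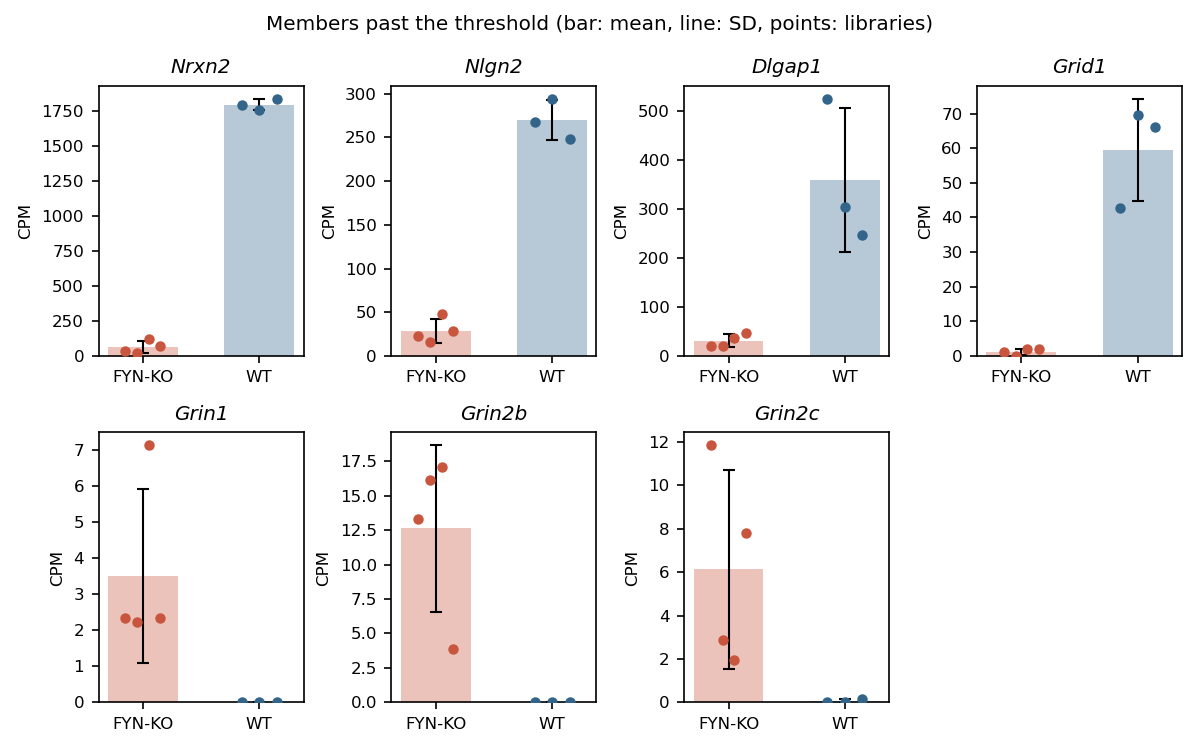
CPM of 7 members past the threshold in FYN-KO (left, n = 4) and WT (right, n = 3), with the mean as a bar, the SD as a line and each library as a point, on a separate linear scale per gene. Nrxn2, Nlgn2, Dlgap1 and Grid1 lie lower in FYN-KO, and Grin1, Grin2b and Grin2c lie at or near 0 in WT.

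Summed over all 44 genes, the tags came to 469, 438, 847 and 535 CPM in FYN-KO and to 4517, 5147 and 4638 CPM in WT, a mean 8.33 times lower in FYN-KO. The sums of 9 of the 10 families did not overlap between the groups and were lower in FYN-KO, with no share over all genes to set beside this. The exception was the metabotropic family, whose sums of 0, 0.0962, 39.4 and 0.223 CPM in FYN-KO and 47.0, 405 and 0 CPM in WT overlapped. In the kainate family a different gene was highest in each WT library, namely Grik4, Grik2 and Grik3 in the order of the replicates. NMDA subunit sums were 66.1, 63.7, 88.0 and 67.9 CPM in FYN-KO and 107, 339 and 213.8 CPM in WT, although Grin1, Grin2b and Grin2c rose. Without Grin3b, whose tags are uncertain as above, the NMDA sums overlapped, at 29.9, 25.7, 35.2 and 24.4 CPM in FYN-KO and at 23.3, 218 and 0.168 CPM in WT.

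**Figure D5:**
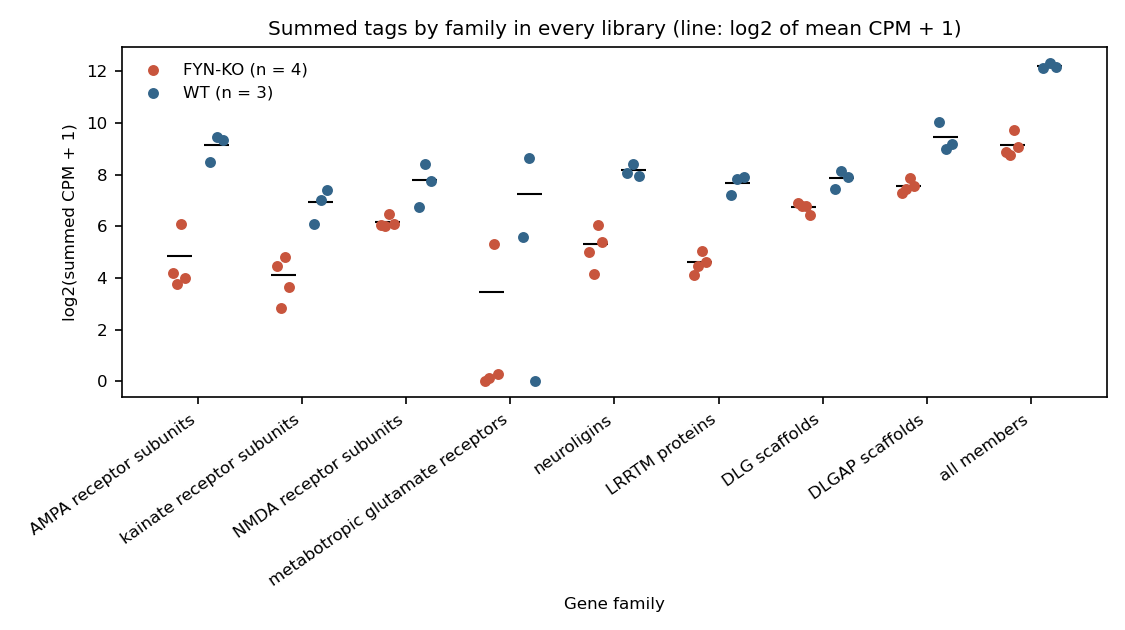
Summed CPM of 8 families and of all members in every library, as log2(CPM + 1), with FYN-KO (n = 4) left of WT (n = 3) and a line at the log2 of the group's mean plus 1. FYN-KO points lie below WT points in each family drawn except the metabotropic receptors, where WT replicate 3 lies at 0.

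Within the FYN-KO group, progenitor markers summed to 161, 142.8, 993 and 429 CPM in FYN-KO replicates 1 to 4, and steroid-producing cell markers to 26310, 26990, 22890 and 25870 CPM. Replicate 3, which had the highest progenitor sum and the lowest steroid sum, was the highest FYN-KO library for 19 of the 28 tested members, against 25.9% of all tested genes. Nlgn2, Lrrtm2, Nrxn2, Nlgn1, Gria2 and Dlgap3 followed the full order of the progenitor sum, which ran from replicate 2 through 1 and 4 to 3, and the other 22 tested members did not. Of all tested genes 4.75% followed it. Replicate 3 also had the most genes with a count in its group (14548), the highest Rn45s share (16.6%) and the highest neuron marker sum (132 CPM). The part of any of these features, the progenitor sum among them, in the members' values was not tested.

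Within WT the members were unevenly detected, as genes were over the whole table. The WT libraries held counts for 20, 27 and 21 of the 44 members, against 26, 22, 35 and 27 in FYN-KO. Over all genes they held counts for 7723, 9924 and 9704, against 13899, 13762, 14548 and 13535 in FYN-KO. Of 18 members that reached 100 CPM in some WT library, 7 (38.9%) lay under 1 CPM in another, namely Gria3, Grik3, Grin3a, Grm5, Nrxn3, Lrrtm1 and Lrrtm3. Over all genes the same held for 41.5% of those at 100 CPM or more in some WT library, and for 0.0396% in FYN-KO. Nrxn2, Nlgn2, Dlgap1, Gria2 and Gria4 were present in each WT library.

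Other genes of the glutamatergic synapse, from 4 lists of 81 genes, gave 54 tested genes of which 4 rose, 4 fell and 46 did not pass, with a median log2 fold change of -1.60. That is 7.41% higher and 7.41% lower, against 19.0% and 3.51% of all tested genes. Of 6 tested auxiliary subunits of AMPA and kainate receptors, Gsg1l, an AMPA receptor partner, rose to 39.1 ± 13.6 CPM in FYN-KO, against no count in WT (at least 155-fold higher, edgeR adjusted p = 0.0121), and none fell. Of 12 tested postsynaptic scaffold and signalling genes, 3 rose and none fell. Kalrn, an exchange factor for small GTPases of the cytoskeleton, stood at 26.2 ± 6.82 CPM in FYN-KO, Pick1, which binds the tail of Gria2's product, at 12.1 ± 2.38 CPM, and Shank3, a deep scaffold, at 2.27 ± 1.42 CPM, with no WT count for any of them. They were at least 104-fold, 48.1-fold and 9.03-fold higher (edgeR adjusted p of 0.0121, 0.0121 and 0.0134), and Shank3 lost its call without WT replicate 1 (0.0547). These 3 genes and Gsg1l passed the filter through the FYN-KO libraries alone, and limma-voom called none of them (adjusted p of 0.320 for Kalrn, 0.354 for Pick1, 0.554 for Shank3 and 0.322 for Gsg1l). Their fold bounds cover counting error only, not uneven detection within WT.

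Of 26 tested genes of other trans-synaptic adhesion, none rose and 1 fell (3.85%), where 19.0% of all tested genes were higher and 3.51% lower. This was Clstn1, a calsyntenin, at 62.3 ± 14.8 CPM in FYN-KO libraries and 323 ± 240 CPM in WT (log2 fold change -2.55 ± 0.73, edgeR adjusted p = 0.0391). The groups overlapped, and the call was lost without any 1 FYN-KO replicate (0.0714 to 0.106) and without WT replicate 3 (-1.51, 0.115). Of 10 tested genes of glutamate transport and metabolism, none rose and 3 fell. Slc1a1, a neuronal glutamate transporter, averaged 5.48 ± 4.17 CPM in FYN-KO libraries and 215 ± 98.4 CPM in WT libraries (log2 fold change -5.36, edgeR adjusted p = 0.0121). Slc1a2, the main glutamate transporter of astrocytes, averaged 6.12 ± 10.2 CPM in FYN-KO libraries and 461 ± 363 CPM in WT (log2 fold change -6.21 ± 1.85, edgeR adjusted p = 0.0452), and lost its call without FYN-KO replicate 1 or 2 or WT replicate 1 or 3 (0.0673 to 0.117). Slc38a1, a glutamine carrier, averaged 99.5 ± 27.2 CPM in FYN-KO libraries and 504 ± 299 CPM in WT libraries (log2 fold change -2.38 ± 0.48, edgeR adjusted p = 0.0121).

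Neuron marker sums did not overlap between the groups, but most of each WT sum was Map2. The 12 markers summed to 53.5, 67.2, 132 and 73.6 CPM in FYN-KO and to 397, 489 and 513 CPM in WT. Apart from Map2, the other 4 tested markers overlapped between the groups and did not pass. Nefl and Nefm had no count in any library, Snap25 and Gad1 had none in WT, and the vesicular glutamate transporters Slc17a6 and Slc17a7 had none in any library. Map2, a microtubule protein of neurons and of some glial progenitors, stood at 10.6, 15.2, 48.4 and 26.8 CPM in FYN-KO and at 275, 332 and 465.5 CPM in WT, and was the 1 of 5 tested neuron markers that fell (log2 fold change -3.93 ± 0.72, edgeR adjusted p = 0.0121). Astrocyte markers summed to 320 to 577.6 CPM in FYN-KO, against 409 to 620.3 CPM in WT, with Aqp4 at 0 in FYN-KO. Within that list Aldoc fell, at 28.5 ± 4.96 CPM in FYN-KO libraries and 349 ± 63.5 CPM in WT libraries (edgeR adjusted p = 0.0114). Gja1 averaged 448 ± 118 CPM in FYN-KO libraries and 75.5 ± 120.3 CPM in WT libraries, with no overlap, and Gfap averaged 3.17 ± 5.42 CPM in FYN-KO libraries and 65.1 ± 49.8 CPM in WT libraries, and neither passed (0.473 and 0.172). Microglia markers summed to 170.4 to 264 CPM in FYN-KO, against 52.7 to 305 CPM in WT, with P2ry12 at 0 in WT. Of the 5 tested, Cx3cr1 and Tmem119 rose, at 63.4 ± 12.04 and 8.25 ± 5.99 CPM in FYN-KO libraries and 0.0204 ± 0.0353 and 0.0261 ± 0.0452 CPM in WT libraries (edgeR adjusted p of 0.0121 and 0.0125).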

How the data were processed

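RNA of sorted cells was extracted with Qiazol and RNeasy, and Lexogen's QuantSeq 3' kit gave the libraries, per the labels' protocols. Per the submitters' processing notes, Bowtie2, bedtools and DESeq2 1.32.0 were used with mm10 (GRCm38). The counting strand, the annotation and the changes behind the table's name (modified) were not given in the sources used here. Per-gene values as deposited are whole-number counts for each library, without molecular identifiers, for 23282 entries.

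Columns were joined to samples through the labels. The column of WT replicate 3 was used as a WT library with no sample of its own, since a second WT sample has that column name as title. Replicate numbers follow the columns, and the titles of the WT samples carry other numbers.

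The filter on low counts was edgeR's filterByExpr (edgeR 4.0.16, R 4.3.3, 10 counts in enough libraries, 15 in all), which left 13122 of 16599 genes with a count. After TMM scaling, the contrast FYN-KO minus WT was tested by the quasi-likelihood F test (two-sided), Benjamini-Hochberg adjusted over all tested genes, with a threshold of 0.05. The SE is approximate, from the size of the log2 fold change divided by the root of F. CPM are counts per 1000000 of the library total. P-values set the difference between the groups against the spread between these libraries. A fold against a group without counts is a bound against 3 counts in the shallowest library of that group (0.252 CPM in WT, 0.334 CPM in FYN-KO), and floors and intervals cover counting error only. Alternatives were RLE factors, library sizes alone, Rn45s left out, other filters, DESeq2 1.42.0, limma-voom (limma 3.58.1) with quality weights, leaving out each library, a replicate block and, added after seeing the data, NMDA sums without Grin3b.

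All 44 members entered the counts of members, and the values of 3 of them are not reported here. The others past the threshold, or with a mean of 20 CPM in a group, were given in full. Of the other lists, up to 4 genes past the threshold were named, beside defining markers at 0 and genes chosen after their values were seen (overlapping genes, Gja1, Gfap, Csf1r, Aif1 and C1qa). The members and lists were chosen with earlier results of these data known. Coordinates are from GENCODE M21 and promoter windows from RefSeq. The exact permutation test over 35 splits of 7 libraries has a smallest p of 0.0286 and is not quoted per gene.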

Additional observations from a re-analysis of the deposited data

Results flagged for a closer look

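For 10 members 1 of the 4 FYN-KO libraries lay far from the other 3, with a gap to the nearest that took up nearly the whole range of the group (Dixon's 95% critical value). Chance flags about 1 in 20 groups of normally spread values, and that rate does not hold where the other 3 libraries are all at 0, as for 6 of the 10 (Grik1, Grm4, Grm6, Grm7, Nrxn3 and Lrrtm4), since any count then meets the criterion. The 10 were 27.8% of the 36 members that varied in FYN-KO, and 17.7% of all genes that varied met the criterion. Replicate 3 was the library that lay far off in 43.3% of those genes. In 8 of the 10 it was FYN-KO replicate 3, which stood at 15.3 CPM for Gria2, 0.109 CPM for Grik1, 7.11 CPM for Grin1, 3.83 CPM for Grm4, 33.6 CPM for Grm5, 1.97 CPM for Grm7, 19.6 CPM for Nrxn3 and 0.328 CPM for Lrrtm4. The same library held the highest sum of oligodendrocyte progenitor markers of its group, at 993 CPM. It also held the most genes with a count, at 14548, and the highest Rn45s share, at 16.6%. The part of each of these in the flagged values was not tested. In the other 2 it was FYN-KO replicate 2, with 1.35 CPM for Gria1 and 0.0962 CPM for Grm6, the last from a single count.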

How the results depend on the processing

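With all libraries 3 members were higher and 5 lower. Higher members numbered 1 with a minimum count of 50, 5 with DESeq2, and 0 with limma-voom, among genes detected in both groups and with the replicate block (0, 0 and 4 of them at an unadjusted p under 0.05), and lower members numbered 12 with DESeq2. Members tested numbered 22 with a minimum count of 50, 17 among genes detected in both groups and 28 in the others of these settings. The filter on both groups removed Grin1, Grin2b and Grin2c, and the minimum count of 50 removed Grin1 and Grin2c. Those 2 settings are therefore no new test of the removed genes. The 4 other synapse genes that rose were also removed by the filter on both groups. Over the whole table, DESeq2 called 3564 genes higher (27.2% of those tested) and 918 lower (7.0%). With a minimum count of 50, 17.5% were higher and 4.21% lower. Higher genes numbered 52 (0.807%) among genes detected in both groups, 24 (0.183%) with limma-voom and 188 (1.43%) with the replicate block. Lower genes numbered 146 (2.26%), 320 (2.44%) and 135 (1.03%) in the same order. Of the other synapse genes, 0 were higher in those 3 settings (1, 8 and 5 at an unadjusted p under 0.05), and 1 was lower among genes detected in both groups and 1 with the replicate block, against 8 by DESeq2. Leaving out 1 library gave 2 to 4 higher and 4 to 9 lower of 25 to 30 tested members, and 3 to 8 higher and 2 to 6 lower other synapse genes. Over the whole table it gave 2190 to 4585 higher genes (17.7% to 32.8%) and 247 to 839 lower ones (1.99% to 6.0%). The direction turned for Gria3 (-2.65 to 0.06 when 1 library was left out), Grik3 (-4.85 to 0.31), Dlg1 (0.24 with the replicate block) and Dlg3 (-1.10 to 0.08, 1.24 with limma-voom and 0.69 with the block). The median of all genes was 2.49 with limma-voom and 3.45 with the block, against 0.45, and the cause of these shifts was not tested. Nrxn2 and Dlgap1 kept their calls in every setting run, while Nlgn2 lost its call with the block alone (-3.43, adjusted p = 0.175). Same-numbered libraries did not deviate together (correlations of -0.013, -0.010 and -0.027 for replicates 1 to 3). Over all pairs of a FYN-KO and a WT library the correlations lay between -0.027 and 0.023. These numbers follow the columns, while the WT sample titles carry other numbers, so a pairing was neither shown nor excluded. FYN-KO replicate 4, which has no WT column of its number, adds nothing to the block fit. Without WT replicate 2 the difference in family sums, FYN-KO minus WT, was -13.55 CPM for the metabotropic receptors and -88.8 CPM for the NMDA subunits, against -140.7 and -148.4 CPM with all libraries. Without Grin3b, a choice made after seeing the data, the NMDA difference was -51.7 CPM. By counting error alone, a gene without a WT count can hold up to 0.252 CPM in a WT library. Uneven detection within WT is not covered by that limit.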
